A study of Mus musculus with 2 samples.

Results

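Calm2 and Calm3, which encode calmodulin, the calcium buffers Pvalb, Calb1 and Calb2, and the neuronal calcium sensors Hpca, Hpcal4, Vsnl1 and Ncald were followed in mouse hippocampus at 10 days of age. The 9 genes were taken by name and not by a cut on a measured value, though earlier results of these data were known. All 9 were found among 55536 annotated genes. RNA came from females of the B6CASTF1/J hybrid strain, and the label names a layer of hippocampus without saying which. Both libraries, biological replicate 2 and biological replicate 1, belonged to 1 group with no treatment named, each a pool of 3 differently numbered mice with 300 ng of RNA input. They were total RNA libraries, depleted of ribosomal RNA and stranded, with ERCC spike-ins, synthetic RNAs added in known amounts. The group had no other age, sex, strain or treatment beside it, so the genes' levels are described first and replicate 2 is then set against replicate 1.

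Calcium entering a neuron through channels and receptors is bound by proteins built from EF-hands, helix-loop-helix units that hold the ion in a loop of 12 residues. Calmodulin changes shape on binding and switches on kinases, phosphatases and channels. The neuronal calcium sensors carry a lipid tail that calcium exposes, which takes them to membranes. Calbindin (Calb1), calretinin (Calb2) and parvalbumin (Pvalb) bind calcium in the cytosol and shape its time course, and in hippocampus they mark different cells. Calbindin is known from granule cells of the dentate gyrus, calretinin from Cajal-Retzius cells and some interneurons, and parvalbumin from fast-spiking interneurons that mature after birth.

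The calcium-binding loops are shown because they set out how alike the genes are and what a read can tell apart. The loops run 5′ to 3′ on the coding strand and come from build mm10 and GENCODE M21 transcripts. The first set is the first EF-hand loop of calmodulin, codons 21 to 32, with the bases that differ between Calm3 and Calm2 in capitals. The Calm3 loop lies at chr7:16917667-16917702 on the minus strand and that of Calm2 at chr17:87435873-87435908 on the minus strand.
Calm3: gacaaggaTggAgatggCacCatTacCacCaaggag
Calm2: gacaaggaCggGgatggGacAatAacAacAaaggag

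The differences in this loop leave the protein as it is. All 7 differing bases are at the last position of a codon, and both loops have 1 translation. Over the whole coding sequence of 447 bases, Calm2 and Calm3 differed at 78 bases, an identity of 82.6%, while their 149 residues were identical. The coding exons of both genes held 3, 31, 144, 107, 136 and 26 bases in that order. Reads of these genes could be told apart all the same. Of the windows of 100 bases along the leading transcript, 99.9% in Calm3 and 99.0% in Calm2 occurred in no transcript of another gene.

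The second set is the loop at codons 73 to 84 of the 4 sensors, with the bases that vary among them in capitals. It lies at chr4:129118490-129118525 on the minus strand in Hpca, chr15:37397183-37397218 on the minus strand in Ncald, chr4:123189079-123189114 on the plus strand in Hpcal4 and chr12:11332127-11332162 on the minus strand in Vsnl1.
Hpca: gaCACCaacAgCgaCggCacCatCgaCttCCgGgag
Ncald: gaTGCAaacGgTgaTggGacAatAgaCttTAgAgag
Hpcal4: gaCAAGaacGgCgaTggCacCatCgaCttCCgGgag
Vsnl1: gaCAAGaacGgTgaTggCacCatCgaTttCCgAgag

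Here 14 of the 36 bases vary, 10 of them at the last position of a codon, and the 4 loops have 3 translations. The sensors fell into pairs by sequence and by exon structure. Hpca and Ncald, of 193 residues each, shared 170 residues, an identity of 88.1%, and both had coding exons of 378, 106 and 95 bases. Hpcal4 and Vsnl1, of 191 residues each, shared 171 residues, an identity of 89.5%, and both had coding exons of 162, 216 and 195 bases. Across these pairs identity was lower, at 69.3% for Hpca and Hpcal4 and 68.8% for Hpca and Vsnl1.

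The last set is the first loop that matches the PROSITE EF-hand pattern in each buffer, with the first and last codon in capitals, which encode residues that bind the ion. In Pvalb it lies at chr15:78202526-78202561 on the minus strand. In Calb1, between chr4:15881468 and 15881983 on the plus strand, and in Calb2, between chr8:110156971 and 110168053 on the minus strand, the loop is split by an intron that is left out here.
Pvalb: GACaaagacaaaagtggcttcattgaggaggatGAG
Calb1: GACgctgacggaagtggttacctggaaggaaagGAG
Calb2: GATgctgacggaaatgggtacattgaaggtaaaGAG

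The buffers were less alike than the calmodulins or the sensor pairs. Calb1, of 261 residues, and Calb2, of 271, shared 60.8% of 260 aligned residues, and 7 of their 11 coding exons had the same length at the same place. Pvalb, of 110 residues, shared 33.6% of its residues with Calb1. The pattern was found 4 times each in Calm2 and Calm3, 3 times in each sensor, 4 times in Calb1, 5 times in Calb2 and 2 times in Pvalb. Of 21901 protein-coding genes, 0.991% held a match. A match is a description of the sequence, not a measured binding site.

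The alignment-based tables summed to 32275110 expected counts in replicate 2 and 29858328 in replicate 1, and spike-ins took 0.393% and 0.341%. Of 22015 nuclear protein-coding genes, 13019 had a TPM, transcript abundance scaled to a fixed total and corrected for length, of at least 1 in each library, with a median of 15.4. Markers of the tissue were present: a TPM of at least 1 in each library was seen for all 5 genes of each CA field list and all 8 dentate granule genes, while 1 of 5 cerebellar genes did. The libraries stood apart in myelin, where all 10 oligodendrocyte markers were higher in replicate 2, with a summed TPM of 608 in replicate 2 and 207 in replicate 1. The 5 choroid plexus markers summed to 685 in replicate 2 and 436 in replicate 1, of which Ttr alone made up 670 and 422. Ttr was 1.71-fold higher by counts. Of the 5, 2 were higher by adjusted p and 0 lower, against 16.3% higher and 11.1% lower among all genes tested. Replicate 2 was lower for the thalamus and habenula list, at 100.2 against 121 in replicate 1, of which Calb2 made up 50.5 and 50.7, and for the neocortex and subiculum list, at 167 against 221. In bulk tissue fewer cells of a type and less RNA per cell cannot be told apart.

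The 9 genes spanned a 203-fold range of mean TPM, 157-fold in replicate 2 alone and 320-fold in replicate 1 alone, in the order Calm3, Calm2, Hpca, Ncald, Vsnl1, Hpcal4, Calb2, Calb1 and Pvalb. Calmodulin RNA stood near the top of the tissue's coding genes, the sensors below it and the buffers last. Calm2 and Calm3 together had a TPM of 2019 in replicate 2 and 1857 in replicate 1 (mean 1938 ± 115, SD, n = 2), which was 66.5% and 69.0% of the summed TPM of the 9 genes. The 4 sensors summed to 915 in replicate 2 and 746 in replicate 1 (831 ± 119), and the 3 buffers to 102.8 and 89.1 (96.0 ± 9.70). By these means Calm2 and Calm3 held 2.33 times the TPM of the sensors, and the sensors 8.66 times that of the buffers. The read-based table, a second estimate made from the reads and an index, gave the same order of the 9 genes.

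**Figure D1:**
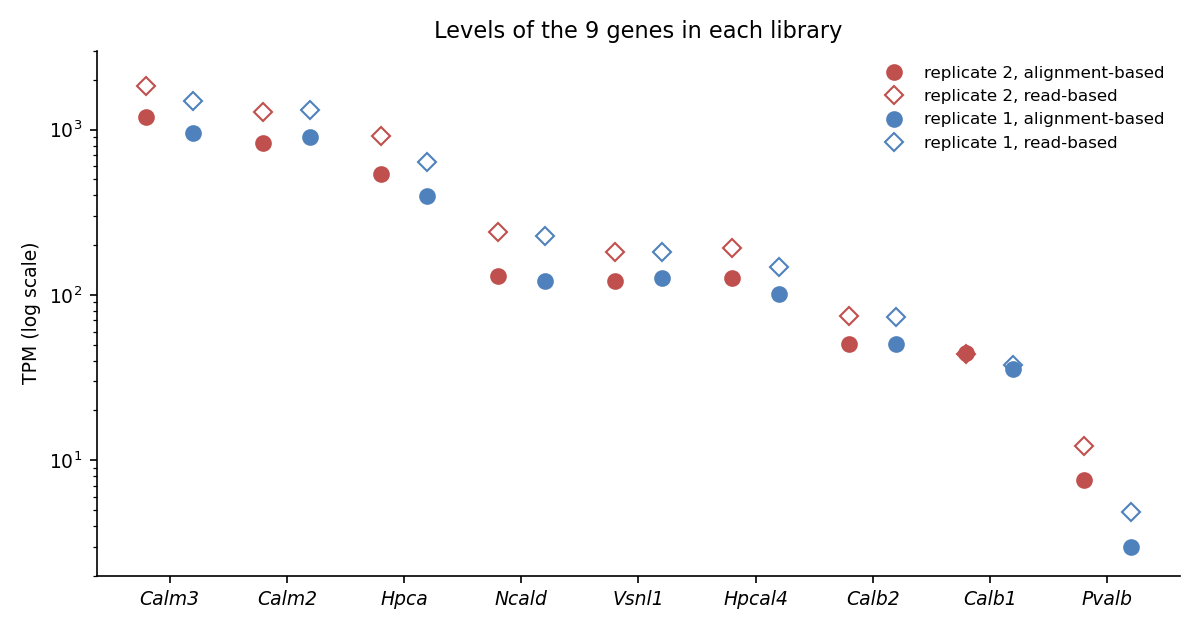
TPM of the 9 genes on a log scale, with filled circles for the alignment-based table, open diamonds for the read-based table, red for replicate 2 and blue for replicate 1. Levels step down from Calm3 at 1186 and 959 to Pvalb at 7.54 and 3.00 in the alignment-based table, and Calb1 is the gene whose values nearly coincide between the tables.

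Neighbours in this order did not all stand apart. A pair was called different where the log2 ratio of TPM within each library pointed one way in replicate 2 and replicate 1, with a mean above 2 SD. With 2 libraries an exact sign-flip test cannot go below p = 0.5, so this is a description. Of 8 pairs of neighbours, 4 were called, namely Calm2 over Hpca (log2 0.90 ± 0.38), Hpca over Ncald (1.89 ± 0.23), Hpcal4 over Calb2 (1.16 ± 0.23) and Calb1 over Pvalb (3.03 ± 0.68). Calm3 and Calm2 did not differ beyond their spread, nor did Ncald, Vsnl1 and Hpcal4 as neighbours, nor Calb2 and Calb1. The read-based table called 5, losing Calm2 over Hpca at 0.76 and gaining Ncald over Vsnl1 at 0.37 and Calb2 over Calb1 at 0.86.

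Between the libraries, Pvalb was the gene that differed most. Each gene's expected counts were scaled by TMM, a trimmed mean of ratios over all genes, and compared by an exact two-sided binomial test with Benjamini-Hochberg adjustment over 20544 genes. The test sets 1 library against another, with no replicate check, and no condition differed between them. By an adjusted p of 0.05 or less together with a log2 ratio of at least 1 in size, 1 of the 9 genes was called, higher in replicate 2, where 0.599% of all genes tested were called higher and 2.85% in either direction. By adjusted p alone, 6 of the 9 were higher in replicate 2 and 0 lower, against 16.3% higher and 11.1% lower among all genes tested. The 6 were Pvalb, Hpca, Hpcal4, Calb1, Calm3 and Ncald. These calls depend on the scaling and the table. With spike-in scaling 3 were higher, Pvalb, Hpca and Hpcal4, and 3 were lower, Calm2, Vsnl1 and Calb2. Total-count scaling called the same 6 higher and Calm2 lower, median-of-ratios scaling called 7 higher, Vsnl1 added, and the read-based table called all 9 higher. Most of the 9 genes are deeply counted, and among all genes with 1000 or more counts over both libraries 46.3% passed the adjusted p in either direction, so the share of 6 in 9 is to be read against that. Passing with so many counts needs only a small ratio.

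The median log2 ratio of replicate 2 over replicate 1 was 0.30 over the 9 genes and -0.0047 over all genes tested. Among 12071 nuclear protein-coding genes of at least 200 counts it was 0.04, with an SD of 0.234 across genes. Under TMM all 9 ratios were above 0. That count depends on the scaling: total-count scaling left 7 above 0 and 2 below, Calm2 and Vsnl1, and spike-in scaling left 5 above 0 and 4 below, Calm2, Vsnl1, Calb2 and Ncald. Spike-in scaling put the median of the 12071 genes at -0.25, against 0.04 under TMM. Pvalb, Hpca and Hpcal4 were above 0 and past the adjusted p under each scaling and in the read-based table. With spike-ins Calm3 stood at 0.01 and Calb1 at 0.08, with adjusted p values of 0.36 and 0.114 in the exact test. On the TPM scale 6 of the 9 genes were higher in replicate 2 and Calm2, Vsnl1 and Calb2 were lower.

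**Figure D2:**
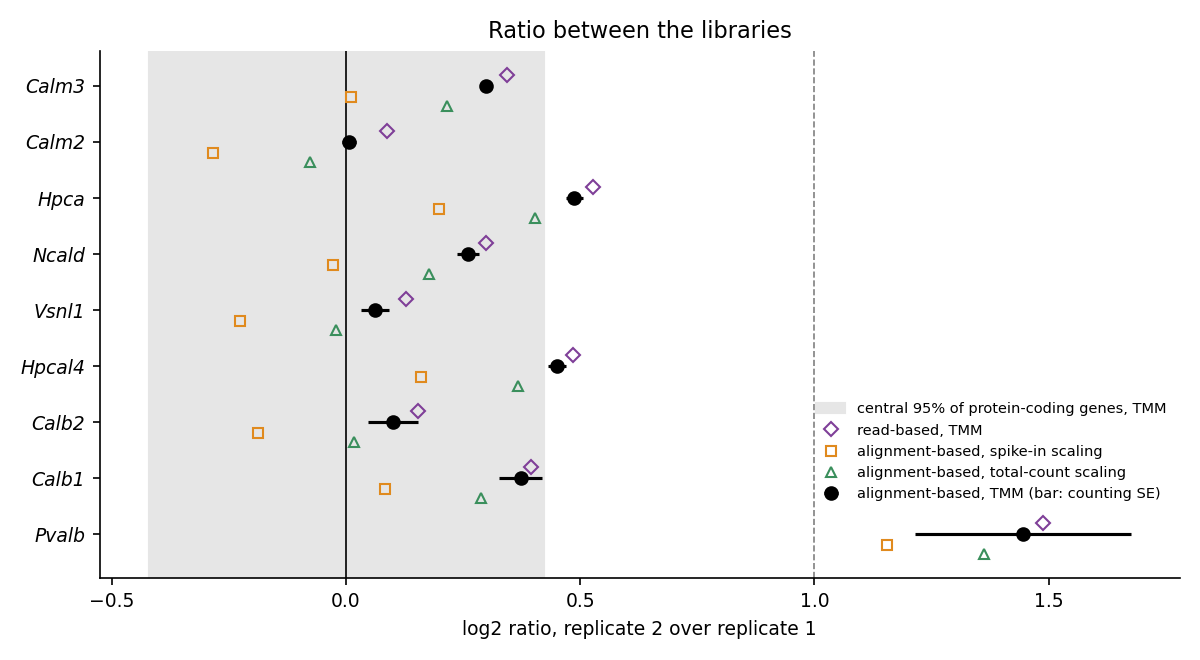
Log2 ratio of replicate 2 over replicate 1 for each of the 9 genes, with black circles for TMM-scaled expected counts and bars for the counting SE, and open symbols for the read-based table, spike-in scaling and total-count scaling. The grey band holds the central 95% of protein-coding genes of at least 200 counts and the dashed line marks a log2 ratio of 1, which Pvalb alone passes.

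Calm3 (ENSMUSG00000019370.10, chr7:16915379-16924114, minus strand) was the most abundant of the 9 genes. It had a TPM of 1186 in replicate 2 and 959 in replicate 1 (mean 1072 ± 161), from 52158 and 41570 counts, and ranked 5 and 11 among protein-coding genes. Replicate 2 was the higher library. The count ratio was 1.23-fold, a log2 ratio of 0.30 ± 0.0095 (counting SE), and 13.4% of the protein-coding genes of at least 200 counts had a ratio larger in size. Calm2 (ENSMUSG00000036438.13, chr17:87433412-87446935, minus strand) had a TPM of 833 in replicate 2 and 898 in replicate 1 (865.5 ± 46.0), from 20738 and 20260 counts, at ranks 17 and 15. Its count ratio was 1.00-fold, with an adjusted p of 0.821 in the exact test.

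Calm3 over Calm2 had a log2 ratio of TPM of 0.51 in replicate 2 and 0.09 in replicate 1 (mean 0.30 ± 0.29), and the pair was not called. Calm3 was the higher in both libraries, with a mean ratio below 2 SD. The read-based table gave 0.53 in replicate 2 and 0.18 in replicate 1.

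Among the sensors, Hpca led and the other three lay close together. Hpca (hippocalcin, ENSMUSG00000028785.13, chr4:129111570-129122036, minus strand), a sensor named for this tissue and known from pyramidal neurons, had a TPM of 537 in replicate 2 and 399 in replicate 1 (468 ± 97.8), from 16002 and 11197 counts. The gene Tmem54 overlaps it on the other strand and had 0 counts in both libraries. Hpca ranked 48 in replicate 2 and 80 in replicate 1, and held 58.7% and 53.4% of the sensor sum. It exceeded Hpcal4 by 4.08-fold (log2 2.03 ± 0.07) and Ncald by 3.69-fold, and Vsnl1 over Hpca had a log2 ratio of -1.90 ± 0.34. All 3 pairs were called. Hpcal4 (visinin-like 2, ENSMUSG00000046093.9, chr4:123183227-123194701, plus strand) had a TPM of 127 in replicate 2 and 101 in replicate 1 (114 ± 18.0), from 13739 and 9866 counts.

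Hpca and Hpcal4 had the largest ratios of the 8 genes with over 1000 counts. Replicate 2 was 1.40-fold higher for Hpca (log2 0.49 ± 0.018) and 1.37-fold for Hpcal4 (0.45 ± 0.019), with 3.09% and 4.13% of the protein-coding genes further from 0. Neither reached the log2 ratio of 1. The glutamatergic marker list summed to a TPM of 2286 in replicate 2 and 1900 in replicate 1. Of its 7 genes, 4 were higher and 2 lower by adjusted p. Among all genes tested 16.3% were higher and 11.1% lower, and 46.3% passed in either direction among those with 1000 or more counts. Camk2a, a calmodulin-dependent kinase subunit of these neurons, was 1.40-fold higher in replicate 2. The part of these markers in the sensor ratios was not tested.

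Ncald (neurocalcin delta, ENSMUSG00000051359.15, chr15:37366175-37792570, minus strand), which spans 426 kb, had a TPM of 129.6 in replicate 2 and 121 in replicate 1 (125 ± 6.21), from 8584 and 7030 counts. Its count ratio was 1.20-fold (log2 0.26 ± 0.023). Vsnl1 (visinin-like 1, ENSMUSG00000054459.8, chr12:11325242-11436613, minus strand) had a TPM of 122 in replicate 2 and 126 in replicate 1 (124 ± 2.74), from 4993 and 4693 counts. Its count ratio of 1.04-fold had an adjusted p of 0.106 in the exact test. Vsnl1 and Hpcal4, its closest relative in sequence among the sensors followed here, did not differ beyond their spread in level (log2 0.13 ± 0.26). Hpca and Ncald, its closest relative among the same sensors, did differ (1.89 ± 0.23). Sensors outside this set, such as Hpcal1, were not aligned. Within Ncald lie 11 other annotated genes, of which Gm15941 had 46 counts in replicate 2 and 58 in replicate 1 and the antisense Gm28221 had 0 in both.

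Of the buffers, Calb2 and Calb1 stood near each other and Pvalb far below. Calb2 (ENSMUSG00000003657.9, chr8:110137502-110168210, minus strand) had a TPM of 50.5 in replicate 2 and 50.7 in replicate 1 (50.6 ± 0.134), from 1526 and 1396 counts. The libraries gave nearly the same value, and the adjusted p in the exact test was 0.158. The Cajal-Retzius list, which holds Calb2, summed to 112 in replicate 2 and 121 in replicate 1, with 0 of 7 genes past the adjusted p in either direction. Most of each sum was Calb2 itself and Reln, the latter at 43.6 in replicate 2 and 49.1 in replicate 1. Calb1 (ENSMUSG00000028222.2, chr4:15881264-15908064, plus strand) had a TPM of 44.7 in replicate 2 and 35.4 in replicate 1 (40.1 ± 6.63), from 2276 and 1724 counts. Replicate 2 was 1.30-fold higher by counts (log2 0.37 ± 0.046), with an adjusted p of 1.17e-14 in the exact test. The dentate granule list, which holds Calb1, summed to 168 in replicate 2 and 140.1 in replicate 1. Of its 8 genes, 5, Calb1 included, were higher in replicate 2 by adjusted p and 0 lower. Among all genes tested 16.3% were higher, and among those with 1000 or more counts 46.3% passed in either direction. Prox1, at 44.9 in replicate 2 and 39.9 in replicate 1, and C1ql3, at 38.0 and 29.4, were among the 5. Pdzd2 was not, at 18.2 in replicate 2 and 20.45 in replicate 1, with an adjusted p of 0.409 in the exact test. The part of the dentate granule list in the Calb1 ratio was not tested.

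Pvalb (ENSMUSG00000005716.16, chr15:78191114-78206400, minus strand) was the lowest of the 9 genes. Its TPM was 7.54 in replicate 2 and 3.00 in replicate 1 (5.27 ± 3.21), with deposited intervals of 6.24 to 8.61 around a posterior mean of 7.41 in replicate 2 and 2.19 to 3.75 around 2.98 in replicate 1, which did not overlap. The gene had 148 counts in replicate 2 and 53 in replicate 1, a 2.72-fold ratio (log2 1.45 ± 0.23) with an adjusted p of 4.81e-10 in the exact test. Of the protein-coding genes of at least 200 counts, 0.133% had a ratio larger in size. Pvalb lies close to that limit of counts, and its counting SE is about as large as the SD of 0.234 across those genes. It was not compared with genes of like depth. In the read-based table the TPM was 12.2 in replicate 2 and 4.86 in replicate 1. Calb1 exceeded Pvalb by a log2 ratio of 2.55 in replicate 2 and 3.52 in replicate 1, and Calb2 exceeded it by 2.73 and 4.04.

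Other markers of fast-spiking interneurons moved less than Pvalb. The list of 9, Pvalb included, summed to a TPM of 97.3 in replicate 2 and 85.7 in replicate 1. Of the 9, 5 were higher by adjusted p and 0 lower, against 16.3% higher and 11.1% lower among all genes tested. Kcnc1 and Kcnc2, potassium channels that allow fast firing, were 1.25-fold and 1.27-fold higher in replicate 2, Erbb4 was 1.07-fold higher, and Lhx6 had a ratio of 0.994. The interneuron list of 12 genes, Calb2 among them, summed to 921 in replicate 2 and 846 in replicate 1, with 8 higher and 0 lower by adjusted p, against 16.3% higher and 11.1% lower among all genes tested and 46.3% in either direction among those with 1000 or more counts. Cerebellum, where Purkinje cells express Pvalb, and skeletal muscle, where it is abundant, were also looked at. Cerebellar markers summed to 4.56 in replicate 2 and 5.19 in replicate 1, of which Car8 made up 3.63 and 4.23, with Gabra6 at 0.04 and 0. Muscle markers summed to 3.97 in replicate 2 and 3.78 in replicate 1, of which Acta1 made up 2.13 and 2.59, with Ckm at 0.19 and 0.04. The thalamus and habenula list and the neocortex and subiculum list, given above, had lower sums in replicate 2. By adjusted p, 1 gene of the first was higher and 4 lower, and 1 of the second higher and 3 lower. The sum of the myelin list was higher in replicate 2. The part of any of these lists in the Pvalb ratio was not tested.

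Pvalb has a pair of annotated transcripts with the same coding sequence and different first exons, and the libraries differed in which was assigned reads. Pvalb-202 starts at position 78206400 and Pvalb-201 at position 78204237 of chromosome 15. In replicate 2 Pvalb-201 was given 51.9% of the gene and Pvalb-202 48.1%, while in replicate 1 Pvalb-202 was given 100% and Pvalb-201 was listed at 0. The read-based table gave Pvalb-201 58.1% in replicate 2 and 0 in replicate 1. The deposited posterior mean, which averages over uncertain assignments, put Pvalb-201 at 55.4% in replicate 2 and 47.5% in replicate 1. With 53 counts over the whole gene in replicate 1, the difference in first exon use was not resolved at this depth.

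Both promoters are shown because the starts differ in base composition. They come from RefSeq, build GRCm38.p6, and run 5′ to 3′ from 250 bases before to 50 bases after the start on the minus strand, with each CG dinucleotide in capitals. The promoter of Pvalb-202 lies at chr15:78206351-78206650 and that of Pvalb-201 at chr15:78204188-78204487.
Pvalb-202: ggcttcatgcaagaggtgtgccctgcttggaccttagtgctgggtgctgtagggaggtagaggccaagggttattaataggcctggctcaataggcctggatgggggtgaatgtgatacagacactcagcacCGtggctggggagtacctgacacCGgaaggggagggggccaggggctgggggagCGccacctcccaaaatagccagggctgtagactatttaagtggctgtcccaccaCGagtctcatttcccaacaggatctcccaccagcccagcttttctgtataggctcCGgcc
Pvalb-201: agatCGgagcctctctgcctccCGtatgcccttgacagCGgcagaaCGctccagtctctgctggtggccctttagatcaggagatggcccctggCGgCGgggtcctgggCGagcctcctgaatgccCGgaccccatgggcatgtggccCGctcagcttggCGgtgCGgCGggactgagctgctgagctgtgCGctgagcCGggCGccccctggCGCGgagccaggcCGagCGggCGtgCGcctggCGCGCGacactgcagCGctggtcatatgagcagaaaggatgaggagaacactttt

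The promoter of Pvalb-202 held 5 CG dinucleotides at 58.3% G and C, and that of Pvalb-201 held 25 at 67.7%. Among 32851 promoters of the same length the median was 7 CG dinucleotides and 52.7% G and C, 62.0% held at least 5 and 18.4% held at least 25. The dinucleotide reads the same on both strands. These letters describe the windows and were not compared with methylation or binding. Promoters of 5 of the 9 genes were in the table, and only those of Pvalb are printed, since it was the gene called different.

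The members' RNA was split among transcripts in ways that the 2 tables gave differently. The 9 genes have 43 annotated transcripts, and 23 reached 10% of their gene in a library of either table. A single transcript held 90% or more of the gene in 4 genes. Calm2-201 held 98.1% in replicate 2 and 96.9% in replicate 1, Hpcal4-201 99.0% and 97.5%, Calb2-201 100% in both, and Vsnl1-201 100% and 99.6%. The leading transcript was the same in both tables for 6 of the 9 genes and differed for Calb1, Hpca and Ncald.

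Calm3 carried another transcript in the alignment-based table. Calm3-202, of 648 bases and annotated for nonsense-mediated decay, the pathway that degrades RNAs with an early stop, held 15.0% of the gene in replicate 2 and 5.46% in replicate 1, at a TPM of 178 and 52.4. The coding transcript Calm3-201 held 84.8% and 94.4%, at a TPM of 1005 in replicate 2 and 905 in replicate 1. By reads, Calm3-202 took 2211 of 52158 counts in replicate 2 and 594 of 41570 in replicate 1, since a short transcript needs few reads for a given TPM. In the read-based table it held 0.0414% in replicate 2 and 0.0453% in replicate 1. There Calm3-203, annotated as coding, held 12.9% in replicate 2 and was listed at 0 in replicate 1, and Calm3-204, without a reading frame, held 0.0083% in replicate 2 and 7.01% in replicate 1. The coding transcript had 49919 counts in replicate 2 and 40963 in replicate 1, unscaled.

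Calb1 was divided between its coding transcript and transcripts with a retained intron, an intron left in the RNA. In the alignment-based table Calb1-202, of 701 bases with a retained intron, held 51.3% of the gene in replicate 2 and 45.6% in replicate 1, and the coding Calb1-201, of 4222 bases, held 46.6% and 49.9%. By reads the coding transcript led, with 85.7% of the gene's counts in replicate 2 and 87.1% in replicate 1. The read-based table gave Calb1-201 70.2% and 67.0%, Calb1-203, another transcript with a retained intron, 20.3% and 22.5%, and Calb1-202 9.51% and 10.5%. The TPM of the coding transcript was 20.9 in replicate 2 and 17.6 in replicate 1 in the alignment-based table, below that of Calb2 in each library. Effective lengths differed between the tables, at the length minus 99 bases in the alignment-based table. In the read-based table the gap for members' transcripts over 1000 bases was 316 bases in replicate 2 and 324 in replicate 1, and for shorter ones it ran from 274 to 316 in replicate 2 and from 271 to 324 in replicate 1.

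Hpca and Ncald changed their leading transcript between the tables while their gene levels kept their order. Hpca-201 held 70.6% in replicate 2 and 75.7% in replicate 1 in the alignment-based table and 3.04% and 2.31% in the read-based table, where Hpca-202 led with 45.0% and 33.6%. Ncald-203 held 71.9% in replicate 2 and 62.9% in replicate 1 in the alignment-based table and 21.1% and 21.5% in the read-based table, where Ncald-204 led with 30.3% and 27.9%. These transcripts are all annotated as coding. Which of them the tissue uses is not settled by these estimates.

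**Figure D3:**
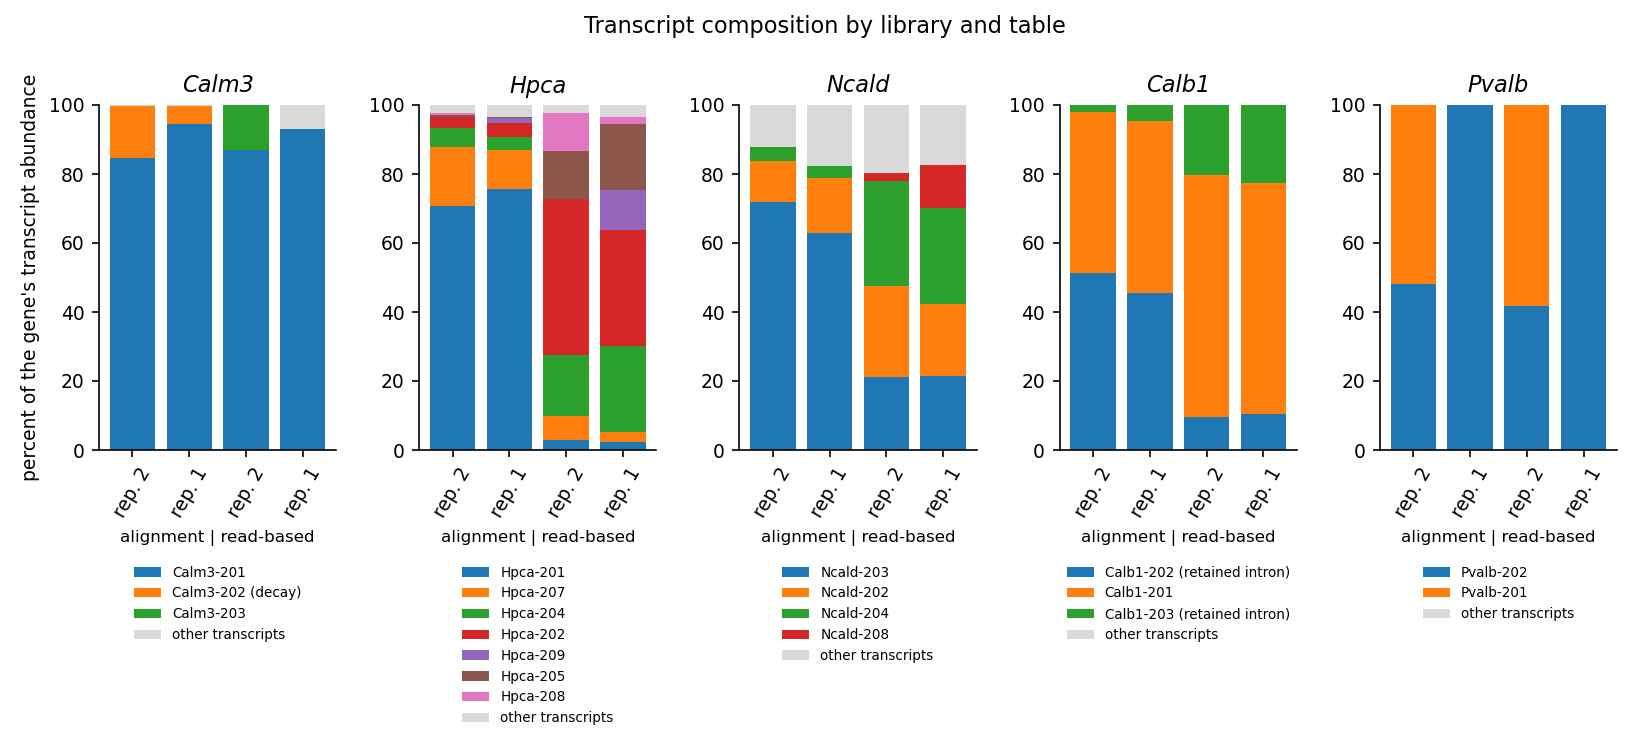
Percent of each gene's transcript abundance by transcript for Calm3, Hpca, Ncald, Calb1 and Pvalb, with replicate 2 left of replicate 1 and the alignment-based table left of the read-based table. Hpca, Ncald and Calb1 differ more between the tables than between the libraries, and Pvalb differs between the libraries in both tables, with Pvalb-201 at 0 in replicate 1.

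Relatives outside the 9 genes were mostly lower than the sensors and calmodulins described here. Of 9 other neuronal calcium sensors, 6 had a TPM of at least 1 in each library, with a median mean TPM of 16.6. In replicate 2, 3 were higher and 0 lower by adjusted p, against 16.3% higher and 11.1% lower among all genes tested. The leading ones were Ncs1, at 75.4 in replicate 2 and 65.4 in replicate 1, and Kcnip2, a subunit of potassium channels, at 74.8 and 58.5. Among 10 calmodulin-like genes the median mean TPM was 0.168 and 4 had 0 counts in both libraries, each of which could have held up to 3 counts. The highest were Caln1 at 63.6 in replicate 2 and 61.8 in replicate 1 and Cabp1 at 38.9 and 34.8. Cabp7 was 1.69-fold higher by counts in replicate 2, at 40.9 and 26.0. Of 21 other cytosolic buffers and EF-hand relatives, 19 were detected in both libraries, with 7 higher and 1 lower, led by Cetn3, a centrin, at 57.5 in replicate 2 and 67.2 in replicate 1.

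Genes for some proteins that calmodulin acts on or is held by had abundant RNA. The 22 calmodulin-dependent enzymes all had a TPM of at least 1 in each library, with a median mean TPM of 42.9. They summed to 2593 in replicate 2 and 2334 in replicate 1, with 12 higher and 5 lower by adjusted p. They were led by Camk2a at 781 in replicate 2 and 617 in replicate 1, Ppp3ca, the catalytic subunit of calcineurin, at 393 and 344, and Camk2b at 392 and 354. Ppp3r1, the EF-hand subunit of calcineurin, was 1.40-fold higher by counts in replicate 2, at 239.5 and 185. The 8 genes listed as calmodulin-binding neuronal proteins summed to 2292 in replicate 2 and 2331 in replicate 1, with 4 higher and 2 lower. Binding by each was not looked at here. Nrgn, which holds calmodulin at low calcium, stood at 716 in replicate 2 and 626 in replicate 1, and Gap43, of growing axons, at 325 and 398. In the endoplasmic reticulum, the 11 calcium-binding proteins had a median mean TPM of 44.6, with 6 higher and 1 lower, led by Calr at 198 in replicate 2 and 203 in replicate 1. The median log2 ratios of these 6 lists lay between 0.09 and 0.17, against 0.04 over the protein-coding genes of at least 200 counts. Of all genes tested 16.3% were higher and 11.1% lower by adjusted p, and 46.3% passed in either direction among those with 1000 or more counts. The calls in these lists were made under TMM. Spike-in scaling shifts each ratio by -0.29.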

How the data were processed

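Total RNA-seq of 2 hippocampus libraries of 1 group was used, from female B6CASTF1/J mice of 10 days. Per the file headers and the deposited listing, the alignment-based tables were made by the authors from transcriptome alignments and the read-based tables from reads and an index, with build mm10 and annotation M21. Programs and versions, and whether strand was used, were not given in the sources used here. Expected counts (alignment-based) and estimated counts (read-based) are, per the file headers, reads assigned to each gene or transcript, with no normalization. TPM, per the file headers, is scaled over all entries, spike-ins included, and FPKM, per the file headers, served in 1 alternative. Transcript shares are the deposited percent of the gene, and in the read-based table were computed from TPM. Reads of the hybrid were quantified against 1 reference, and any effect of the CAST alleles was not tested.

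Expected counts were rounded. Entries with no gene (26249) held 6 counts in replicate 2 and 4 in replicate 1 and were left out. TMM factors came from edgeR 4.0.16 in R 4.3.3, over all annotated genes. Genes with 10 or more counts over both libraries entered the exact binomial test, and log2 ratios used a pseudocount of 0.5 counts, and pairs one of 0.1 TPM. The counting SE covers counting error only, and reads are not independent molecules. With 1 library on each side, edgeR's quasi-likelihood test has no residual degrees of freedom. Alternatives were DESeq2 1.42.0 size factors, total counts, spike-ins, no filter, 1.5-fold, the read-based table, posterior means, FPKM and another pseudocount. The share among genes with 1000 or more counts was chosen after seeing the data. The test was checked on simulated counts that held counting error only. They had no spread between pools, so the check says nothing of how that spread affects the calls. Python 3.11.15 with numpy 2.4.6, scipy 1.17.1, pandas 2.3.3, biopython 1.88 and matplotlib 3.10.9 was used.

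The members and lists were chosen with earlier results of these data known. All 9 members were named. Of each list, up to 4 genes with the highest mean TPM, and those called at a mean TPM of 1 or more, could be named. Gabra6, Ckm, Tmem54, Gm15941 and Gm28221 fall outside this rule and were chosen after their values were seen. A comparison of gene shares that had been planned is not reported here.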

Additional observations from a re-analysis of the deposited data

How the results depend on the processing

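The 9 members' median TPM was 124, and was 181 in the read-based table and 277 with TPM rescaled to nuclear protein-coding genes. Either library alone gave 121 to 127. Of 10 pairs by role, 5 were called, and 8 in the read-based table, with none of the calls changed by posterior means, FPKM or a pseudocount of 1 TPM. The count of genes with a transcript at 90% or more was 4, and 4 to 6 with a library left out. Between the libraries 585 genes were called, 1276 under spike-in scaling (88 higher and 1188 lower) and 1161 at 1.5-fold. Other scalings, no filter and the read-based table gave 508 to 689. Ratios that changed sign were those of Calm2 (-0.078 with total counts and -0.28 with spike-ins), Vsnl1 (-0.022 and -0.23), and, with spike-ins, Calb2 (-0.19) and Ncald (-0.029). Each scaling shifts every gene by 1 constant (-0.29 with spike-ins and -0.08 with total counts), so ratios nearer to 0 than that change sign. No paired analysis was possible because there is 1 group. Pvalb rests on 148 counts in replicate 2 and 53 in replicate 1. The other members have over 1000 counts in each library. Whether depth or the spread between pools limits them more was not tested. With 2 pools, that spread is poorly known.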
